A study of Brassica napus with 45 samples.

Results

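Leaf transcriptomes of a BnNAC038 knockout of Brassica napus (rapeseed) and of its wild type were compared after 6 h in 20% polyethylene glycol (PEG). The comparison held 6 of the 45 libraries of the series, 3 of the knockout line BnNAC038-KO-1 and 3 of wild type, and was made within the knockout experiment, where wild type columns are named K407. Seedlings grew in Hoagland's solution. The labels call the libraries biological replicates without saying what was sampled separately, name a single knockout line, and do not say how it was made. For reference, the same genotypes were available untreated and after 50 µM abscisic acid (ABA) for 3 h, and the other experiment held overexpression lines 1 and 2 of BnNAC038 with their own wild type, also with PEG.

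NAC proteins are plant transcription factors, many of which act in water stress, senescence or growth. PEG in the root medium lowers its water potential, so leaves lose water and respond partly through ABA, the hormone that closes stomata and switches on protective genes. Brassica napus carries an A and a C subgenome from its parent species, and related chromosomes such as A01 and C01 hold similar genes in similar order. The identifiers name the chromosome and a number that runs along it. None of the identifiers matched the reference gene table at hand, so genes are given by identifier without names or roles, and BnNAC038 itself, leaf markers and pathway lists were not analysed here.

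The 6 libraries had similar totals of the deposited normalized values, 788008 to 803185, with 36727 to 38219 genes at 1 or more. Read depth is unknown. Knockout replicate 3 stood apart. Its correlation across genes with the other knockout libraries was 0.944 and 0.959, while those correlated with each other at 0.983, and wild type libraries correlated at 0.960 to 0.981. It was at least 2-fold above both other knockout libraries in 626 genes and at least 2-fold below both in 563, on the log2(value + 1) scale. The same count was 107 above and 113 below for knockout replicate 1, and 7 above and 49 below for knockout replicate 2. Among wild type libraries it was 96 above and 182 below for replicate 1. It was 10 and 22 for wild type replicate 2, and 68 and 217 for wild type replicate 3. Several of the counts below are also given without knockout replicate 3.

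The largest group of genes that differed between PEG-treated knockout and wild type lay side by side on chromosome C01. Of 38176 tested genes, 303 were called (0.794%; limma, Benjamini-Hochberg adjusted p under 0.05), 201 higher (0.527%) and 102 lower (0.267%) in the knockout. Most differences were large: 264 of the called genes differed by at least 2-fold and 96 by at least 4-fold. The median log2 difference was 1.69 among the higher and -1.22 among the lower, against -0.01 over all tested genes. In 158 of the 303 all 3 libraries of 1 genotype were below 1, so these genes entered the test through the other genotype alone. Among all 38176 tested genes, 357 were in this state, so the filter itself favoured large differences there. The remaining 145 called genes were seen in both genotypes, 78 higher and 67 lower. Leaving out wild type replicate 2 gave 179 called genes, leaving out knockout replicate 2 gave 188, and leaving out knockout replicate 3 gave 258. The lower genes numbered 46, 47 and 57 without wild type replicate 2, knockout replicate 2 and wild type replicate 3. The count and its split also depended on the fit: 1 fit over all 18 libraries of the experiment called 296 higher and 259 lower, and array quality weights, which let libraries count unequally, called 4653 higher and 5217 lower.

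By chromosome, C01 had 95 called genes of 1533 tested and A01 had 43 of 1795. These were 6.20% and 2.40%. A07 followed with 32 of 1682 and A06 with 29 of 1860, while A02 had 1 of 1637. Segments were sought in the untreated and ABA-treated leaves of both genotypes, without the PEG libraries, as runs of genes called in 1 direction by at least 1.5-fold in both conditions. With at most 10 other tested genes between calls, this gave a single run, from number 2528 to 2948 of C01. With at most 20, a run on A01 from 2036 to 2267 was added. The C01 segment held 88 of the 201 genes that were higher with PEG and none that were lower, and the A01 segment held 25 of the 102 lower genes and 1 higher gene.

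**Figure D1:**
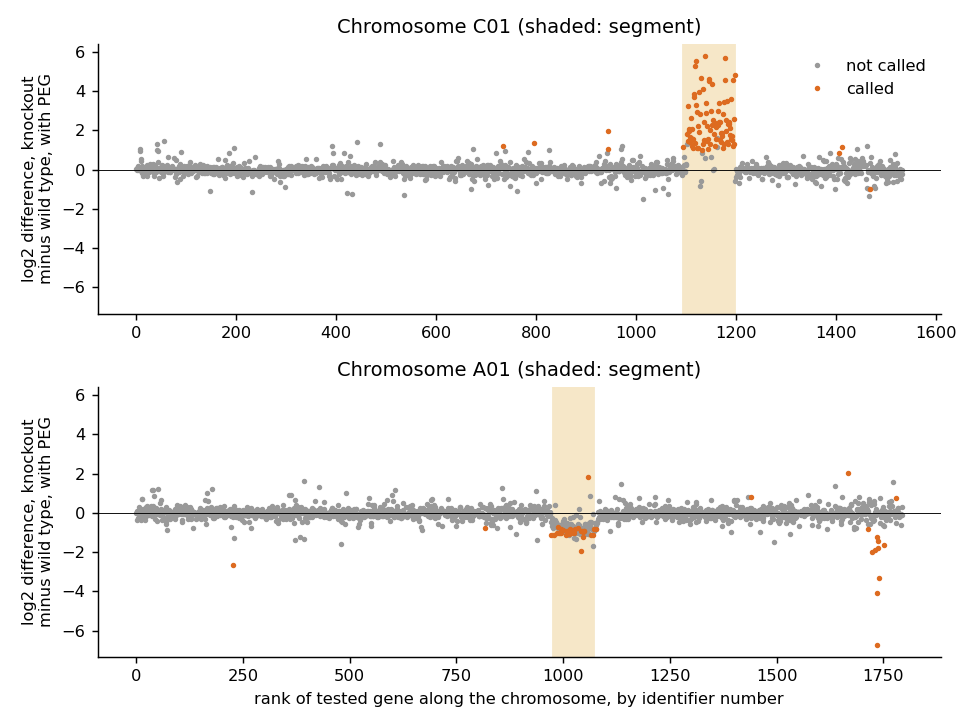
Log2 difference of knockout minus wild type with PEG (vertical axis) for each tested gene of chromosomes C01 and A01, in the order of the identifiers (horizontal axis, rank). Orange points are called genes and the shaded bands are the segments. In the C01 band 88 of 104 tested genes were called higher, and the 20 tested genes on either side held none. The A01 band shows a smaller shift the other way, with a further group of lower genes near the end of the chromosome.

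Within the C01 segment the summed value of all 271 listed genes was 433, 383 and 390 in wild type replicates 1, 2 and 3 with PEG. In the knockout it was 1906, 1821 and 1742. The groups did not overlap, and the knockout mean of 1823 ± 81.96 (SD, n = 3) was 4.54 times the wild type mean of 402 ± 26.95 (exact permutation test, two-sided, p = 0.1, the smallest that 3 against 3 libraries can give). Of the 271 genes, 229 had a higher mean in the knockout and 23 a lower one. Only 104 passed the filter on low values, and 71 of these were below 1 in every wild type library, so they passed through the knockout alone. The other 33 were at 1 or more in at least 1 library of each genotype. Among them 18 were called, with a median log2 difference of 1.30 and a range of -0.82 to 4.84. The 31 genes with a wild type mean of at least 1 had a median ratio of knockout to wild type of 2.52, with quartiles of 1.75 and 4.90, which is less than the ratio of the sums.

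The gene of the segment with the largest difference was BnaC01G0267800ZS, on C01 at number 2678. It was listed at 61.1, 59.1 and 52.0 in the knockout replicates with PEG and at 0.177, 0 and 0 in wild type. The log2 difference was 5.79 (SE 0.14, limma adjusted p = 5.06e-06). It was 4.98 in untreated leaves and 5.04 with ABA. In the overexpression experiment it was listed at 0 in all 9 PEG libraries.

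The genes beside the C01 segment did not share its shift. The 20 tested genes before it had a median log2 difference of 0.05 and the 20 after it -0.04, with no call on either side. The ends are the outermost called genes of the run untreated and with ABA, which favours a lack of calls just beyond them. In the other conditions, from which the segment was taken, the genes seen in both genotypes with PEG had medians of 1.16 untreated (30 genes tested) and 0.97 with ABA (29 genes tested).

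The A01 segment moved the other way. With PEG its 175 listed genes summed to 2870, 2854 and 2668 in wild type replicates 1, 2 and 3 and to 1627, 1541 and 1483 in the knockout. The groups did not overlap, and the knockout mean of 1550 ± 72.56 was 0.554 times the wild type mean of 2797 ± 112.2 (SD, n = 3, exact permutation test, two-sided, p = 0.1). The shift was spread over the segment: 149 genes had a lower mean in the knockout, 19 a higher one, and 93 of 97 tested genes had a negative difference, though only 25 were called lower. Among the 108 genes with a wild type mean of at least 1, the median ratio of knockout to wild type was 0.508, with quartiles of 0.437 and 0.597. No tested gene of this segment was below 1 in all wild type libraries. The 20 tested genes before it had a median log2 difference of -0.04 and the 20 after it -0.28, with 1 call on each side, so its far end was less distinct than those of the C01 segment.

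The C01 and A01 sums of a library added up to similar totals in both genotypes. Together they came to 3303, 3237 and 3058 in wild type replicates 1, 2 and 3 with PEG, and to 3533, 3362 and 3225 in the knockout, so the genotypes overlapped. The C01 sum divided by the A01 sum was 1.17 to 1.18 in the knockout and 0.134 to 0.151 in wild type. Untreated, the quotient was 1.37 to 1.39 against 0.151 to 0.161, and with ABA 1.21 to 1.28 against 0.154 to 0.166.

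**Figure D2:**
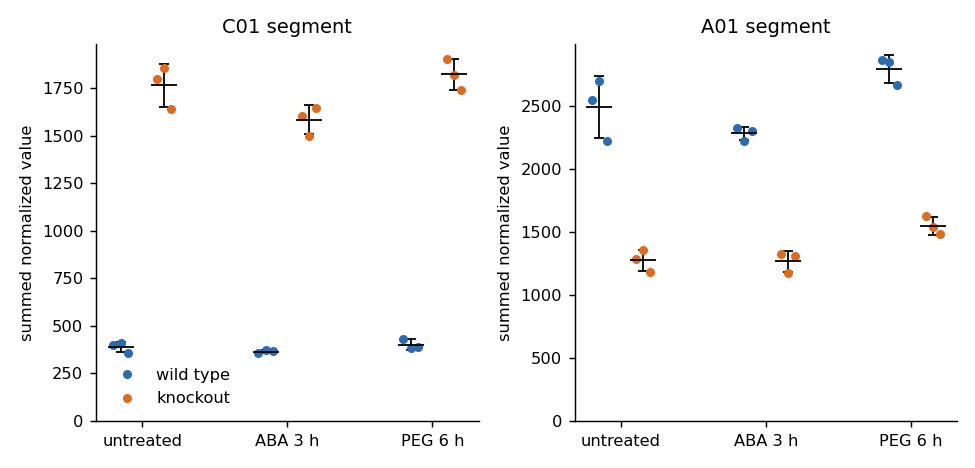
Summed normalized value of all listed genes of the C01 segment (left) and the A01 segment (right) in each library of the knockout experiment, by treatment. Points are libraries, bars the mean and SD of 3. With PEG the knockout sums lay between 1742 and 1906 on C01 and between 1483 and 1627 on A01, and the wild type sums between 383 and 433 and between 2668 and 2870.

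The PEG libraries alone, searched in the same way, gave the C01 segment again with the same ends, an A01 run from 2027 to 2215 and a further A01 run from 4040 to 4135. These runs were chosen on the libraries described, so no test is given. In the further run, 9 of 26 tested genes were called lower by at least 1.5-fold. Its 61 listed genes summed to 362, 322 and 362 in wild type and to 123.9, 124 and 128.1 in the knockout. The median log2 difference of its tested genes was only -0.31, with quartiles of -1.37 and 0.17, and was -0.10 untreated. It held BnaA01G0413200ZS, at number 4132, the most strongly lowered gene that met the rule for naming. That gene was listed at 127, 101.1 and 107 in wild type and at 0, 0 and 0.226 in the knockout (log2 difference -6.71, SE 0.15, limma adjusted p = 5.06e-06). In the overexpression experiment with PEG it was at 7.90, 5.77 and 2.80 TPM in wild type and listed at 0 in all 6 libraries of the lines. Without this gene the run summed to 235, 221 and 255 in wild type and to 123.9, 124 and 127.9 in the knockout, a ratio of 0.529 in place of 0.359.

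Outside these segments and runs 179 of 37945 tested genes were called, 112 higher and 67 lower, a share of 0.472%. With the genes of the C01 and A01 segments left out and adjusted p-values recomputed, a choice made after seeing the data, 153 genes were called, 89 higher and 64 lower. The calls were uneven along the genome. In windows of 250 identifier numbers, 301 of 398 windows held no call and 8 held 4 or more. The fullest, A07 from 2750 to 2999, held 16 called genes of 115 tested, 8 higher and 8 lower. A07 from 2500 to 3249 held 25 of 328 tested genes, 11 higher and 14 lower, with a median log2 difference of 0.00 over all tested genes there. A06 from 1250 to 1749 held 16 of 245, 11 higher and 5 lower, with a median of 0.01. Neighbouring genes in these stretches were thus called in both directions. The windows were chosen after their values were seen, and these counts are descriptions.

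The gene with the largest rise outside the segments was BnaC06G0382800ZS, on C06 at number 3828. It was at 4.92, 5.62 and 6.89 in wild type replicates 1, 2 and 3 with PEG and at 463, 221 and 639 in the knockout. The knockout libraries were spread over almost a 3-fold range, and the lowest of them was far above every wild type library. The log2 difference was 5.90 (SE 0.36, limma adjusted p = 0.000225). The wild type level without treatment was higher and more variable, at 18.7, 24.05 and 70.9, against 907, 1106 and 1303 in the untreated knockout.

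The gene with the largest fall outside the segments and runs was BnaA04G0019800ZS, on A04 at number 198. With PEG it was at 72.9, 65.5 and 136 in wild type and at 2.85, 1.87 and 2.90 in the knockout (log2 difference -4.64, SE 0.28, limma adjusted p = 0.000225). Wild type replicate 3 was high and the groups did not overlap. The gene was lower in the knockout in the other conditions too, by -3.60 on the log2 scale untreated (SE 0.34, limma adjusted p = 0.00533) and -4.34 with ABA (SE 0.49, limma adjusted p = 0.00516).

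Some genes were near 0 in 1 genotype and clearly present in the other. By thresholds chosen after seeing the data, 59 genes were below 0.5 in all 3 wild type libraries with PEG and at 2 or more in all 3 knockout libraries. Of these, 42 lay in the C01 segment. Another 15 genes had the opposite pattern, 12 of them outside every segment and run. The pattern of the 59 was also met in 50 with ABA and in 37 untreated, and that of the 15 in 9 and 4. The level of the 59 in the knockout ranged from a mean of 2.36 to 57.4, with a median of 5.76. Without knockout replicate 3 the counts were 66 and 16.

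Whether the PEG differences belonged to PEG was asked with the untreated and ABA-treated libraries of the same genotypes, which share no library with the PEG comparison. There 489 of 38253 tested genes were called untreated (1.28%) and 471 of 34434 with ABA (1.37%). Of the 303 genes called with PEG, 252 were tested untreated and 235 of them (93.3%) had the same direction, and 265 were tested with ABA and 259 (97.7%) had the same direction. Over all tested genes the shares were 56.2% and 54.7%. Called genes that did not pass the filter in the other condition are left out, so the shares say nothing about genes seen only with PEG. The same genes were called in the same direction in 128 cases untreated and in 205 with ABA, and in the opposite direction in 1 and 0. All conditions compare the same knockout line with the same wild type. Outside the segments and runs 127 of 142 genes had the same direction untreated and 147 of 152 with ABA. Of these 142 and 152, 32 and 112 were called in the same direction. The median of the 112 higher genes there was 1.49 with PEG, 0.47 over the 98 tested untreated and 1.30 over the 100 tested with ABA. For the 67 lower genes it was -1.37, -0.81 over the 44 tested untreated and -1.32 over the 52 tested with ABA. These medians thus cover different sets of genes. The genes were also picked by their PEG calls, which favours a large PEG median. The shares of equal direction depended on wild type PEG replicate 1. Without it 192 of 237 genes were alike untreated and 229 of 247 with ABA, and without knockout replicate 3 the counts were 201 of 216 and 227 of 231.

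**Figure D3:**
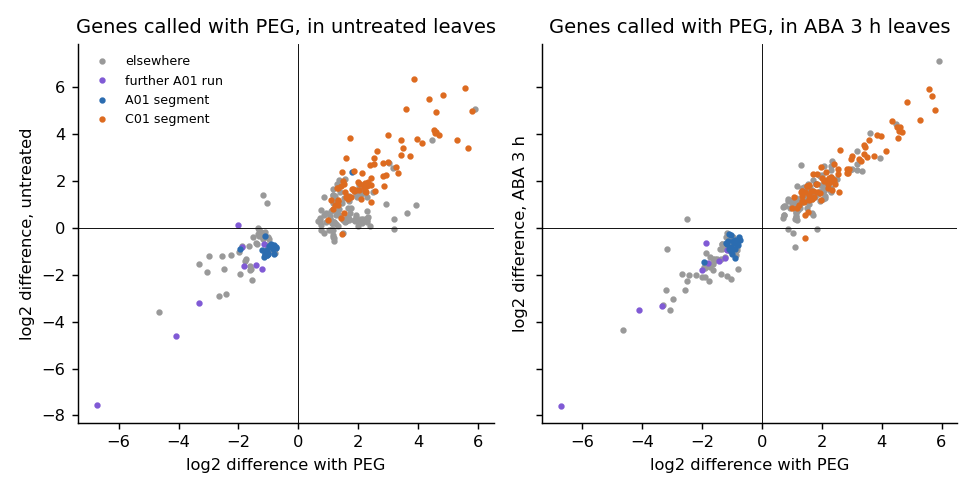
Log2 difference of knockout minus wild type for genes called with PEG: with PEG on the horizontal axis, and in untreated (left) or ABA-treated (right) leaves on the vertical axis. Each point is a gene, coloured by its place. Of the genes tested there, 235 of 252 lie on the same side of 0 untreated and 259 of 265 with ABA.

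The size of the genotype difference was compared between conditions by interaction, in 1 fit over the 18 libraries of the knockout experiment. Against ABA, 2 of 38176 genes were called (0.00524%), with 3554 at an unadjusted p under 0.05. Against untreated leaves 130 were called (0.341%), 97 with a more positive and 33 with a more negative knockout difference under PEG. The genes were filtered on the PEG libraries alone. Of the 130, 13 were below 1 in every untreated library, as were 2149 of all 38176 tested genes, so these entered the test through PEG-treated leaves alone. Of these 130, 54 were also called in the PEG comparison itself, 15 lay in the C01 segment and 18 on A09 or C08. Over all 38176 tested genes, 303 were called with PEG, 104 lay in the C01 segment, 2759 on A09 and 2087 on C08. Without untreated wild type replicate 3, an added choice, 151 genes were called by this interaction. Of these, 93 were more positive and 58 more negative, 9 lay in the C01 segment and 29 on A09 or C08. The number called was 67 without knockout PEG replicate 2 and 67 without wild type PEG replicate 2. Against ABA it was 5 without knockout PEG replicate 3, 6 without wild type PEG replicate 1, 1 without knockout PEG replicate 1 and 1 without wild type PEG replicate 2.

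The genes whose difference with PEG departed from that with ABA were few enough to name, though this was decided after their values were seen. BnaC01G0265600ZS, at number 2656 inside the C01 segment, was at 5.55, 5.77 and 2.95 in the knockout replicates with PEG, 0.867, 0.653 and 0.806 with ABA, and 1.20, 1.16 and 1.32 untreated. With PEG wild type was at 0.108, 0.0274 and 0.0139. The PEG difference exceeded that with ABA by 1.63 on the log2(value + 1) scale (SE 0.21, limma adjusted p = 0.0148) and that in untreated leaves by 1.30 (SE 0.21, limma adjusted p = 0.0106). The gene reached the minimum of 1 with PEG in the knockout libraries alone, so it entered the test through the group where it was high. Its call against ABA was lost in 4 of 14 alternatives (limma adjusted p = 0.0556 without knockout PEG replicate 1, 0.0778 and 0.0509 without wild type PEG replicates 2 and 3, and 0.396 with a pseudocount of 0.1; range over all alternatives 1.46e-06 to 0.396).

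BnaC06G0142100ZS, on C06 at number 1421, was at 2.39, 1.92 and 1.32 in wild type with PEG and listed at 0 in all other 15 libraries of the experiment, the PEG-treated knockout among them. The interaction was -1.51 against ABA (SE 0.14, limma adjusted p = 0.000595). It entered the test through PEG-treated wild type alone. Its values lie close to the filter minimum of 1, and an exact 0 in these values can also be a failed estimate. In the overexpression experiment it was seen with PEG in every library, at 2.01 to 6.35 TPM in wild type and 0.648 to 5.15 TPM in the lines, and it was not called there in either line (limma adjusted p = 0.596 and 0.969).

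Genes chosen by their PEG response in other libraries were then followed in the knockout. In the wild type of the overexpression experiment, PEG changed 24108 of 42268 tested genes (57%). Of the genes tested in the knockout comparison, 13757 were raised there and 6614 lowered. With PEG, the raised genes had a median log2 difference of -0.07 between knockout and wild type and the lowered genes 0.10, against -0.01 over all tested genes. The genes with at least a 4-fold response, a limit added after seeing the data, stood further out, at -0.27 for 1559 raised genes and 0.25 for 516 lowered genes. Called among them were 7 of the 1559, all lower, and 6 of the 516, 3 higher and 3 lower. That is 0.449% and 1.16%, beside 0.794% of all tested genes. The share was 0.517% of the 14312 genes that PEG did not change by call in the other experiment. It was 3.58% of the 3493 genes not tested there.

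The shift of these genes was not separate from the spread between libraries. The median log2(value + 1) of the strongly raised genes was 4.28, 4.61 and 4.81 in wild type replicates 1, 2 and 3 with PEG and 4.46, 4.42 and 3.95 in the knockout, so the genotypes overlapped and knockout replicate 3 was the lowest. For the strongly lowered genes the medians were 3.01, 2.49 and 2.20 in wild type and 2.74, 2.65 and 3.16 in the knockout, with knockout replicate 3 the highest. Without that library the median differences were -0.10 and 0.09 for the strongly responding genes and 0.00 and 0.01 for all raised and lowered genes. Wild type replicate 3 moved them as well, and without it the strongly responding genes were at -0.16 and 0.11. Without wild type replicate 1 the strongly lowered genes were at 0.39. Among the genes in which knockout replicate 3 was at least 2-fold below both other knockout libraries, 65.0% of 563 were PEG-raised and 6.39% PEG-lowered. Among those at least 2-fold above, 22.2% of 626 were raised and 38.0% lowered, and among all tested genes 36.0% and 17.3%. What sets this library apart was not tested. In untreated leaves the strongly raised genes stood at 2.19 to 2.34 in wild type and 2.03 to 2.25 in the knockout. In bulk leaf RNA, fewer responding cells and less RNA per cell cannot be told apart.

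**Figure D4:**
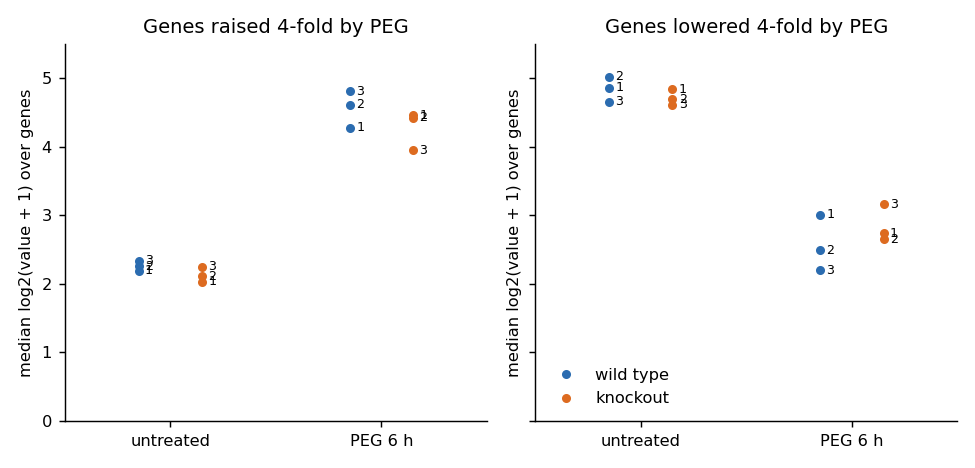
Median log2(value + 1) over 1559 genes raised (left) and 516 genes lowered (right) at least 4-fold by PEG in the other experiment's wild type, in each untreated and PEG-treated library of wild type and knockout. Numbers beside points are replicates. With PEG the genotypes overlap, and knockout replicate 3 lies nearest to the untreated libraries in both panels.

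Overexpression lines gave a further view of the called genes, in separate libraries with separate normalization. With PEG, 1872 of 43168 tested genes (4.34%) differed between line 1 and its wild type and 1903 (4.41%) between line 2 and the same wild type. The line comparisons share those wild type libraries, and the counts depended on them: 1100 and 1198 genes were called without wild type replicate 1, 1145 and 1310 without replicate 2, and 3909 and 2925 without replicate 3. Of the 303 genes called in the knockout, 195 were tested there, and 81 (41.5%) were called in line 1 and 87 (44.6%) in line 2. Of the 195, called there or not, 131 had the knockout's direction in line 1 and 136 in line 2. The calls were mostly in the knockout's direction: 75 genes were called in that direction in both lines and 5 in the opposite direction in both. When each wild type library of that experiment was left out in turn, 67 to 70 were alike and 3 to 6 opposite. When knockout or wild type replicate 2 of the knockout experiment was left out, 48 of the fewer genes then called were alike, and 63 without knockout replicate 3.

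Of the 88 called C01 segment genes, 14 were tested and 1 was called in each line. Of the 26 called A01 segment genes, all were tested, and 2 were called in both lines, each against its direction in the knockout. Called or not, 6 of the 14 C01 genes had the knockout's direction in line 1 and 8 in line 2. For the 26 A01 genes it was 7 and 8. Outside the segments and runs 148 of 179 were tested, 70 were called alike in both lines and 3 oppositely. Of these 148, 112 had the knockout's direction in line 1 and 113 in line 2. On A06, 18 of the 24 tested genes were alike in both lines, and on A07 8 of 28. A06 and A07 held the most calls outside the segments and runs. On other chromosomes the counts varied, with 7 of 11 on C05, 7 of 14 on C07, and 0 of 3 on both C02 and C09. Over all genes tested in the lines, 1296 of 43168 (3.00%) were called in both lines in the same direction as each other. This count does not ask for the knockout's direction, unlike the counts before it. No test of these differences in share was made. BnaC06G0382800ZS was at 43.4, 20.01 and 95.8 TPM in line 1 and 27.6, 52.2 and 45.5 TPM in line 2, against 0.139, 0.480 and 0.205 TPM in wild type, so it was higher in both lines and in the knockout. BnaA04G0019800ZS was at 3.66, 2.08 and 1.66 TPM in line 1 and 3.23, 2.14 and 5.44 TPM in line 2, against 39.9, 36.6 and 31.6 TPM in wild type, and so was lower in all 3.

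**Figure D5:**
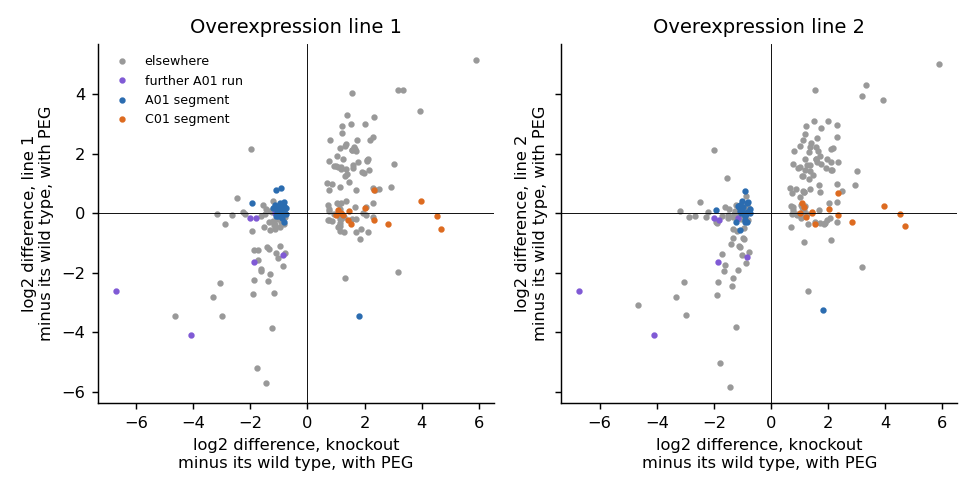
Log2 difference with PEG of overexpression line 1 (left) and line 2 (right) against their wild type (vertical axis) for the genes called between knockout and its own wild type with PEG (horizontal axis). Each point is a gene tested in both experiments. Genes outside the segments fall mostly in the quadrants of equal direction, with 70 called alike in both lines and 3 oppositely, and segment genes lie near 0 on the vertical axis apart from a few.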

How the data were processed

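The authors deposited a table with a block of columns for each experiment. The knockout block holds normalized values per gene (78057 genes), with no statement whether they are TPM or FPKM. The overexpression block holds TPM per transcript, as read from the values the authors deposited, and was summed here to 100919 genes. Sleuth 0.30.1, kallisto 0.51.1, HISAT2 and DESeq2 1.38.3 are named by the submitters' processing notes, which leave their roles unstated. The genome build is not given in the sources used here. The blocks were tested separately. Depth is unknown, and near-identical A and C copies may share reads, which limits the value of any single copy.

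Values were analysed as log2(value + 1) for genes at 1 or more in at least 3 of the compared libraries (for the lines, of 9), with limma 3.58.1 in R 4.3.3, empirical Bayes with a mean trend and no replicate block. The fit was over the 6 libraries compared, over 9 for the lines and over 18 for the interactions, which were tested on the genes that passed the filter in the 6 PEG libraries, so that genes seen only untreated or with ABA were not tested for interaction. A difference on this scale understates the change of low genes. Calls required an adjusted p (Benjamini-Hochberg) under 0.05. Named genes had to be called with at least a 2-fold difference, a higher mean of at least 5 and replicates that do not overlap. In each direction the largest difference inside the C01 segment and the largest outside it was taken, or, with none inside, the largest 2 outside. No name was planned for the interactions. In simulated data of the 6-library comparison with 38176 genes, 35% of 100 genes changed by 1 on the log2 scale and 88% of 100 changed by 2 were recovered. The noise was normal, and only genes with a mean log2(value + 1) of at least 2 were changed, so recovery of lower genes was not measured. False calls were 1.6% of the calls there. In like simulations they were 8.27% for the interaction against untreated and 6.04% for that against ABA. The comparison, segments and settings were chosen with earlier results of these data known. P-values measure the spread between these libraries.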

Additional observations from a re-analysis of the deposited data

Results flagged for a closer look

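The genotype difference with PEG differed from that in untreated leaves in 130 genes and from that with ABA in 2 genes, each by the interaction test over 18 libraries (limma, adjusted p under 0.05). Groups of 3 libraries were too small for a search for single outlying libraries by their range.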

How the results depend on the processing

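The 6 named genes kept the direction and the call of their knockout difference with PEG under every alternative in which they were tested. They were chosen for called differences or called interactions in these same libraries, so kept calls are no independent check of them. BnaC01G0265600ZS and BnaC06G0142100ZS did not pass the filter of 5 or more in 3 libraries and were not tested under it. The interaction against ABA was kept in all 14 alternatives for BnaC06G0142100ZS and in 10 of 14 for BnaC01G0265600ZS. Counts depended more on the fit. With genes at 5 or more in 3 libraries, 145 were called (90 higher, 55 lower, 132 by at least 2-fold), with 72 and 0 for the interactions against untreated and ABA (limma, 1776 of the latter at an unadjusted p under 0.05). This filter tests fewer genes. With no filter the interaction against ABA had 7. A fit over all 18 libraries called 555, 296 higher and 259 lower. Array quality weights gave 9870 (4653 higher, 5217 lower, 707 by at least 2-fold), 3332 and 542, in a fit that weighted the libraries from 0.208 to 9.36, the highest being wild type replicate 2 and the next knockout replicate 2 (4.84). The cause of these differences was not tested. With segment genes left out 153 were called. In a separate alternative with all genes, limiting the PEG-raised class to a 4-fold response gave a median of -0.27. Same-numbered libraries deviated together at r = 0.043, 0.035 and -0.07, so the numbers were not taken to pair them. The highest such r was 0.255, between the deviations of knockout replicate 2 and wild type replicate 3. It does not measure how alike the libraries were. The replicate block gave 198 calls, 51 lower.

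Leaving out each PEG library in turn gave 179 to 273 calls, 133 to 184 higher, 46 to 100 lower and 179 to 268 by at least 2-fold. For the interactions it gave 67 to 183 against untreated and 1 to 6 against ABA. The C01 sum ratio was 4.43 to 4.72. The share of calls with the same direction in both other conditions, 91.8%, ran from 77.6% to 95.9%, and the calls alike in both lines from 48 to 70, the wild type libraries of the lines included. PEG-class medians ran from -0.11 to 0.00 (raised) and 0.01 to 0.15 (lowered). Pseudocounts of 0.1 and 0.5, quantile normalization, equal library sums and robust moderation moved none of the main counts by over 1.5 times.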

Other observations

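The A and C subgenomes kept nearly the same share of the total in both genotypes. The ratio of summed A to summed C values was 0.917, 0.903 and 0.893 in wild type replicates 1, 2 and 3 with PEG and 0.919, 0.906 and 0.907 in the knockout.

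Inside the A01 segment the single gene called higher in the knockout, BnaA01G0222800ZS, had a log2 difference of 1.81 there and of -3.44 and -3.26 in overexpression lines 1 and 2, and it was chosen after its values were seen.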
